A study of Mus musculus with 9 samples.

Results

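Vcam1KO1 is a single-cell clone of PPTR cells in which *Vcam1* was targeted with Cas9 and a guide in exon 2, and its messenger RNA was compared with that of Vcam1ctrl PPTR cells. The members are defined by their labels, 3 RNA-seq libraries of genotype KO1 against 3 libraries of genotype WT, 6 of the 9 libraries of the series. The other 3 libraries, of genotype KO2, are from a second *Vcam1* knockout clone, called Vcam1KO2 here. They were part of the same fit, so they entered the estimate of spread behind the p values, and Vcam1KO1 was also compared with them. PPTR cells are a mouse line of intrahepatic cholangiocarcinoma, a liver cancer with features of bile duct cells, and the cells of all libraries, control included, carry the Prom1CreERT2 driver, conditional alleles of the mouse model and the Rosa-ZsGreen reporter. The cells were grown in DMEM with fetal bovine serum and the labels name no further treatment. The labels name the control WT, while the study calls it Vcam1ctrl, the name used here. The 3 libraries of a group came from different passages of 1 culture or clone, so p values measure the spread between passages. Because Vcam1KO1 is 1 clone, a trait of the clone and an effect of the *Vcam1* edit cannot be told apart in these libraries. The question was which genes and functions differed across the transcriptome of this clone.

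Bile duct cells are epithelial cells. They are held together by adherens junctions, tight junctions and desmosomes, their cytoskeleton is built on keratin filaments, and their identity rests on liver transcription factors. Cells of mesenchymal type lack most of these structures, secrete interstitial collagens and use vimentin filaments. VCAM1 itself is a cell surface adhesion molecule of the immunoglobulin superfamily, best known on endothelium, where it binds integrin alpha 4 beta 1 of leukocytes. In epithelial to mesenchymal transition (EMT), transcription factors such as SNAI1 and ZEB1 lower the genes of epithelial junctions.

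The deposited values were estimated counts, 64651901, 93961714 and 63662354 per library in Vcam1KO1 cells and 53415907 to 125223073 in Vcam1ctrl cells. Levels are given in CPM, counts relative to library size after TMM scaling, and values of 3 libraries are listed in the order of replicates 1 to 3. Of 17672 genes tested, 10584 (59.9%) passed an adjusted p of 0.05 in Vcam1KO1 against Vcam1ctrl cells in a quasi-likelihood fit with edgeR, adjusted by Benjamini and Hochberg, 5288 of them higher (29.9%) and 5296 lower (30.0%) in the clone. A change of at least 2-fold as well was reached by 6835 genes (38.7%). The 3 libraries of the clone lay wholly above or wholly below the 3 control libraries at 11663 genes (66.0%). They did so at each gene named here as risen or fallen unless an overlap is stated. Counts of list members that rose or fell rest on the test alone, and some of the members counted overlapped between the groups. These shares are the background for every count that follows, and the median log2 fold change over all genes tested was 0.02. Genes are said to have risen or fallen only where they passed this test. RNA came from bulk cultures, in which fewer cells of a type and less RNA per cell cannot be told apart.

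Replicate 3 of Vcam1KO1 departed from replicates 1 and 2 and is reported apart where it did. At 655 of 10482 genes with a mean of at least 5 CPM in the clone (6.25%) its log2 CPM lay outside the other 2 libraries by 2-fold or more, above them at 262 (2.50%) and below them at 393 (3.75%). The corresponding counts were 46 and 8 genes for replicates 1 and 2 of the clone, and 25 to 172 for the control libraries. In Vcam1KO2 they were 28, 1 and 229, and replicate 3 of that clone lay below its group at 161 of the 229. Without replicate 3, 10423 of 18372 genes passed (56.7%), 5158 higher (28.1%) and 5265 lower (28.7%), and the 9576 genes called in both fits all had the same sign.

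*Vcam1* was read first, as the targeted gene (chr3:116109949-116129688 on the minus strand of GRCm38, GENCODE vM21). It stood at 248, 220.5 and 329 CPM in the control libraries and at 98.8, 92.4 and 128 CPM in the Vcam1KO1 libraries. All clone libraries lay below all control libraries, with transcripts still present. The mean was 266 ± 56.5 CPM in Vcam1ctrl and 106 ± 19.1 CPM in Vcam1KO1 cells (SD, n = 3 each), a log2 fold change of -1.32 (SE 0.20, adjusted p = 0.000347, edgeR). Counts over the whole gene do not show whether a transcript is edited in exon 2. *Prom1*, whose promoter drives Cre, was near the limit of detection, with 22, 7 and 8 counts in the control and 16, 5 and 4 counts in the clone libraries, and was not tested.

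A list of 16 genes whose proteins bind VCAM1, anchor it or act beneath it held 3 genes that rose and 6 that fell. *Itga4*, the alpha chain of its main integrin receptor, had a mean of 0.397 CPM in Vcam1ctrl and 0.555 CPM in Vcam1KO1 cells, and *Itgb1*, the beta chain, 566 and 617 CPM. Both genes overlapped between the groups and passed no threshold. *Itgad*, integrin alpha D, another chain known to pair in a VCAM1 receptor, rose from 0.00797, 0 and 0.0632 CPM to 20.6, 27.5 and 10.8 CPM. Of the intracellular partners, *Ezr*, the membrane to actin linker ezrin, fell from 1114, 858 and 1095 CPM to 141, 159 and 151 CPM (log2 fold change -2.76, adjusted p = 3.56e-07). The tetraspanin gene *Cd9* fell with it, with a log2 fold change of -2.40.

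The largest changes in level lay in genes that 1 of the groups hardly transcribed. The clone libraries held at most 3 counts each for 564 genes that fell, and the control libraries for 283 genes that rose. Beside genes described with their groups, *Capn6*, a calpain of muscle precursors, rose from 0.104, 0.0738 and 0 CPM to 212, 169.5 and 310.5 CPM. *Eya4*, a transcriptional coactivator, rose from 0.0159, 0 and 0.114 CPM to 89, 86.5 and 56.9 CPM, and *Cyp2f2*, a cytochrome P450 of lung and liver, from 0.0638, 0 and 0.139 CPM to 61.7, 39.3 and 267 CPM. *Cilp*, a matrix protein of cartilage, stood at 268, 189 and 143 CPM in control cells and at 0, 0 and 1 counts in the clone, and the aldo-keto reductase gene *Akr1b7* was at least 1347-fold lower, from 50, 40.5 and 76.7 CPM to no count.

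The 3 genes with the highest control level among those that fell to under 1 CPM were keratins. *Krt8* (chr15:101996698-102004482, minus strand), the type II keratin of simple epithelia, stood at 5201, 5361 and 5570.1 CPM in Vcam1ctrl and at 0.165, 0.146 and 0.0798 CPM in Vcam1KO1 libraries (log2 fold change -15.29, SE 0.34, adjusted p = 8.47e-09). Its filament partner *Krt18*, whose gene lies beside it (chr15:102028180-102032027), went from 3369, 3676 and 3179 CPM to 0.105, 0.0104 and 0 CPM. *Krt19* and *Krt7*, the keratins that mark bile ducts, stood at 2129, 2341 and 2406 CPM and 95.7, 111 and 114 CPM in control cells. In the clone they were at 0.0898, 0.073 and 0.016 CPM and 0.21, 0.469 and 0.383 CPM, so that replicate 3 lacked them as replicates 1 and 2 did. Of 13 keratin genes tested, 11 fell and the other 2 did not pass, with a median log2 fold change of -8.21, or -5.88 with 4 genes at 3 counts or fewer set to that limit. Summed over the list, keratin transcripts amounted to 11031, 11733 and 11556 CPM in control and to 5.33, 5.49 and 5.55 CPM in clone libraries.

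The genes of epithelial junctions fell almost as a block: 31 of 33 tested were lower and 2 higher, with a median log2 fold change of -5.21, or -4.98 with 6 genes at 3 counts or fewer set to that limit. Without replicate 3 the counts were 31 and 2. *Cdh1* (chr8:106603351-106670246), which encodes E-cadherin of the adherens junction, stood at 466, 424 and 709 CPM and at 1.41, 0.991 and 1.61 CPM. Its log2 fold change was -8.65 (SE 0.43, adjusted p = 3.78e-07). *Cldn3*, a claudin of the tight junction, had 109.5, 133 and 141 CPM in control cells and no count in any library of the clone, which makes it at least 3088-fold lower when 3 counts per library are taken as the limit. The tight junction gene *Ocln* (occludin) had 34.6, 27.7 and 48 CPM in control cells and 0, 2 and 0 counts in the clone libraries. In desmosomes, the cadherin gene *Dsg2* fell from 138, 94.4 and 178 CPM to 0.0898, 0.0417 and 0.0798 CPM and the plakin gene *Dsp* from 388, 245 and 544 CPM to 0.389, 0.292 and 0.303 CPM. *Epcam*, an adhesion molecule of simple epithelia, went from 21.4, 17.4 and 27.2 CPM to 0.0898, 0.0104 and 0 CPM. *Jup*, the plakoglobin gene shared by adherens junctions and desmosomes, kept a higher level than these, 98.4, 90 and 95.3 CPM against 425, 339.6 and 575 CPM in control cells.

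Genes that sort, cleave and splice for epithelial cells moved with the junction genes. Among 21 genes of epithelial trafficking and surface proteases, 13 fell and 3 rose. *Mal2*, a carrier of apical transport, had 47, 60.3 and 57.7 CPM in control cells and was absent from the counts of the clone, at least 1329.5-fold lower. *Spint2*, an inhibitor of epithelial serine proteases, fell from 334, 334 and 400.5 CPM to 0.0599, 0.0104 and 0.112 CPM. Of 15 genes that encode epithelial transcription factors and splicing regulators, 11 fell and 2 rose. *Esrp2*, an epithelial splicing regulator, fell from 17.1, 19.4 and 22.6 CPM to 0.0599, 0 and 0.128 CPM, and its relative *Esrp1* from 7.18, 4.85 and 9.46 CPM to 0.0449, 0 and 0 CPM. *Klf5*, a zinc finger factor of proliferating epithelium, fell from 104, 107 and 101 CPM to 0.584, 0.897 and 0.335 CPM. *Cdx2*, the homeobox factor of intestinal epithelium, had 18.2, 14.3 and 20.7 CPM in control cells and 0, 1 and 0 counts in the clone.

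Promoters of the genes that fell together were read for the hexamer CACCTG, the core of the E-box to which SNAI and ZEB proteins bind, on both strands (CAGGTG on the other). The windows are RefSeq promoters of GRCm38.p6, from 250 bases before to 50 bases after a RefSeq start. That start can differ from the GENCODE vM21 start of the same gene. The *Krt8* window below lies inside the GENCODE gene located above, and the *Ocln* window spans the GENCODE start. A gene was counted when any of its promoters held the hexamer, so a gene with several promoters had more chances to match. This was so for 6098 of 27025 genes with a promoter entry (22.6%) and for 21.2% of the 12117 genes tested that had one. The share was 19.8% of those called higher and 24.7% of those called lower. It was 16 of 21 epithelial junction genes with a promoter entry (76.2%), from 36 genes on the list, and 6 of 8 keratin genes (75.0%), from 14. Windows of 60 bases from 5 of these genes are shown 5′ to 3′ on the gene's strand because their transcripts were nearly lost in the clone, with the hexamer in capitals.
Krt18 (chr15:102027975-102028034, plus strand): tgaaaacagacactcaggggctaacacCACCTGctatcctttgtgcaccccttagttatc
Krt8 (chr15:102004421-102004480, minus strand): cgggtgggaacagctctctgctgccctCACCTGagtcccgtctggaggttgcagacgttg
Ocln (chr13:100552679-100552738, minus strand): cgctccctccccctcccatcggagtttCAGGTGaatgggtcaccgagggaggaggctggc
Lsr (chr7:30973660-30973719, minus strand): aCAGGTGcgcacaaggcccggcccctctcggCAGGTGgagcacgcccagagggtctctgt
Epcam (chr17:87635765-87635824, plus strand): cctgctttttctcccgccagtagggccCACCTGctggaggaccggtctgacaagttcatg
A match describes letters in this window and not a bound site, and nothing is drawn from it about a factor. *Lsr*, a gene of tricellular junctions, holds 4 matches in its promoter, 2 of them in the window, and fell from 244, 252 and 276 CPM to 0.374, 0.24 and 0.287 CPM. *Cdh1* and *Vcam1* were not matched to a promoter entry.

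**Figure D1:**
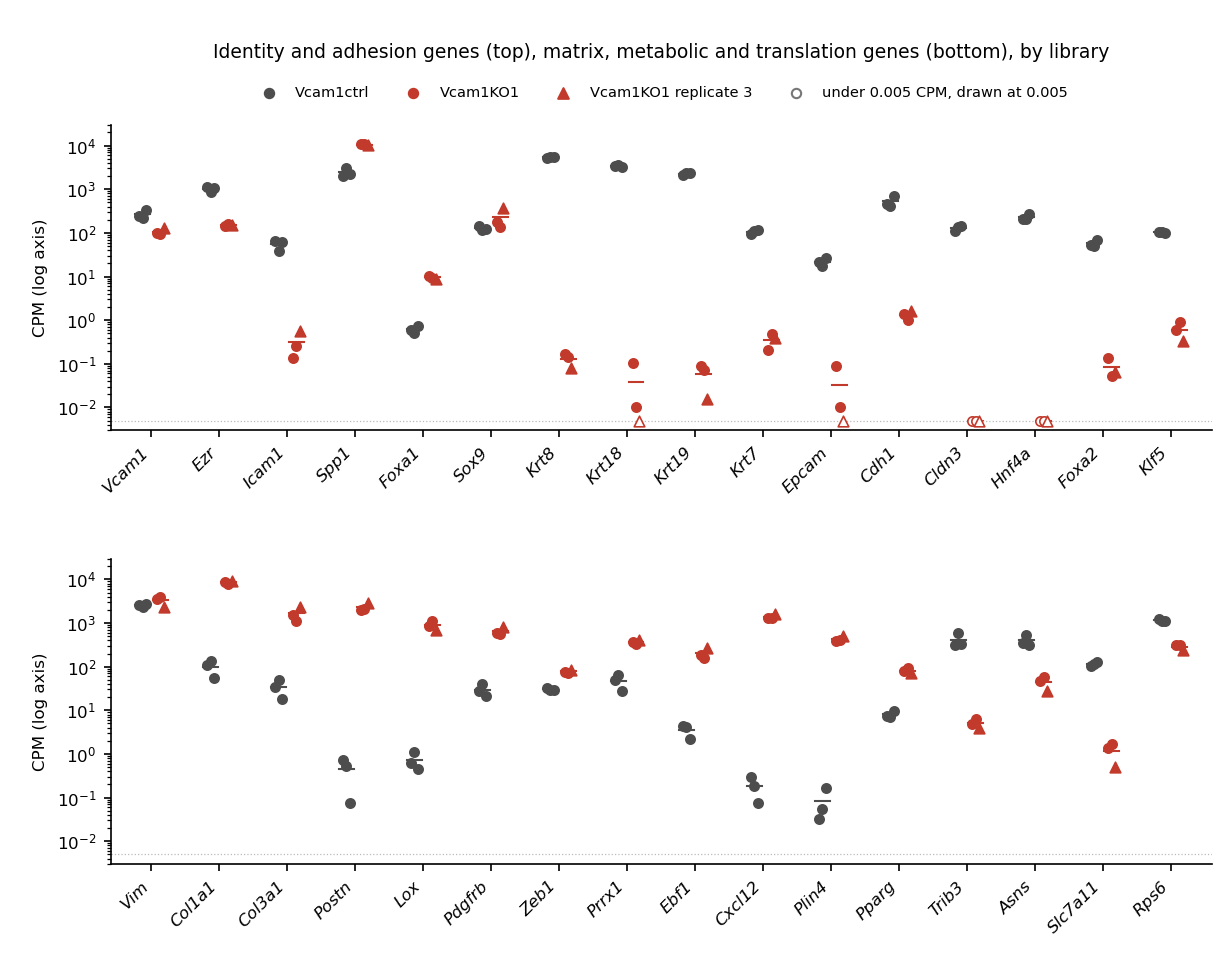
CPM on a log axis for 32 genes in the 3 Vcam1ctrl libraries (grey) and the 3 Vcam1KO1 libraries (red, replicate 3 as a triangle), with a short line at each group's mean and open symbols for levels under 0.005 CPM. The top row holds the targeted and identity genes, where *Krt8* has means of 5377 and 0.13 CPM. The bottom row holds matrix, metabolic and translation genes, where *Col1a1* has means of 99.4 and 8530.3 CPM.

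Liver transcription factors divided. Of 21 hepatobiliary factors tested, 10 fell, 7 rose and 4 did not pass, and 10 fell and 7 rose without replicate 3. *Hnf4a* (chr2:163506808-163572910), the nuclear receptor that governs hepatocyte genes, had 208, 207 and 264 CPM in control cells and no count in the clone, at least 5473-fold lower. The pioneer factor *Foxa2* fell from 53.3, 50.2 and 68.5 CPM to 0.135, 0.0522 and 0.0639 CPM. *Foxa1*, its close relative, moved the other way, from 0.598, 0.517 and 0.746 CPM to 10.4, 9.38 and 8.88 CPM (log2 fold change 3.94, adjusted p = 3.31e-07).

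Checked against defining markers of bile duct cells, the clone kept some and lacked others. *Spp1* (osteopontin) had the highest mean in Vcam1KO1 of all genes that passed without overlap, at 10794, 10769 and 10166 CPM against 2066, 3133 and 2223 CPM (log2 fold change 2.10, adjusted p = 3.1e-05). *Sox9*, the biliary and progenitor factor, stood at 140.5, 115 and 124 CPM in control and 179.6, 139 and 378 CPM in clone libraries, with replicate 3 more than 2-fold above the others, overlapped and did not pass (adjusted p = 0.0647). *Cd24a* did not pass either, at 256, 207 and 376 CPM and 400.2, 356 and 349 CPM, with overlap. *Cftr*, the chloride channel of the duct, fell from 7.45, 9.17 and 9.79 CPM to 0, 2 and 0 counts in the clone. Over the biliary list 13 of 23 genes fell and 5 rose (median log2 fold change -1.68). By these markers the libraries labelled KO1 carry *Spp1* and *Sox9* and have *Krt7*, *Krt19*, *Epcam* and *Cftr* at or near 0.

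Hepatocyte genes divided, with 10 of 18 that fell and 6 that rose (median log2 fold change -3.77). Their summed levels were 1414, 1384 and 1717 CPM in the control and 1343, 1013 and 2641 CPM in the clone, so that the groups overlapped and replicate 3 of the clone was highest. Most of the sum in the clone was *C3*, the central component of complement, which rose from 365, 195 and 279 CPM to 1058, 743 and 2230.5 CPM. *Hp* (haptoglobin), which binds free haemoglobin in plasma, rose from 0.574, 0.332 and 0.683 CPM to 124, 102 and 349 CPM. Among the genes that fell, *Apob*, the apolipoprotein of secreted lipoproteins, went from 445, 380.0 and 568 CPM to 0.21, 0.0835 and 0.016 CPM, *Rbp4*, the retinol carrier of plasma, from 318, 523 and 369 CPM to 0.12, 0.0835 and 0.0958 CPM, and *Ttr*, the thyroxine carrier, from 64.5, 35.4 and 138 CPM to 0.0898, 0 and 0.0958 CPM. *Alb* (albumin) fell as well, though its libraries overlapped, with 3.9, 2.68 and 23.9 CPM in control and 2.1, 1.51 and 2.84 CPM in clone libraries. It did not pass without Vcam1ctrl replicate 3 (adjusted p = 0.205) or without replicate 1 or 2 of the clone (adjusted p = 0.0656 and 0.0823). *Cyp2e1* and *Cps1*, defining genes of mature hepatocytes, had at most 2 counts in any of the 6 libraries. Genes used as mesothelial markers, several of which the control epithelium shares, were lost in 7 of 8 cases. Their summed levels were 2484 to 2844 CPM in control and 1.12 to 1.69 CPM in clone libraries. Most of the control sum was *Krt19*, which is also counted with the keratins above. *Msln* (mesothelin) fell from 188, 169 and 240.5 CPM to 0.0749, 0.0835 and 0.016 CPM.

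Interstitial matrix genes gained the most CPM in summed level of all 57 lists, though other lists rose by a larger ratio. Of 43 tested, 30 rose and 6 fell (median log2 fold change 2.64), and without replicate 3 the counts were 32 and 7. *Col1a1* (chr11:94936224-94953042), the alpha 1 chain of type I collagen, stood at 107, 136 and 55 CPM in control and 8607, 7779.7 and 9204 CPM in clone libraries. This was a log2 fold change of 6.42 (SE 0.35, adjusted p = 6.76e-07). *Col1a2*, which encodes the other chain of that collagen, stood at 569.8, 395 and 258 CPM and 703, 838 and 446 CPM, overlapped and did not pass (adjusted p = 0.0733). *Postn* (periostin), a matricellular protein of fibroblasts, rose from 0.725, 0.535 and 0.0759 CPM to 2025, 2088 and 2926 CPM, and *Lox*, the enzyme that crosslinks collagen, from 0.629, 1.11 and 0.455 CPM to 845, 1113 and 703 CPM. The small proteoglycan gene *Ogn* rose from 0.502, 0.424 and 0.0379 CPM to 418, 420.3 and 618 CPM. *Sparc*, a collagen-binding glycoprotein, and *Fn1*, fibronectin, were already abundant in control cells and rose by 3.74 and 1.43 on the log2 scale, to 5844, 5361 and 6842 CPM and 9994, 10554 and 7058 CPM. *Vim* (vimentin) did not pass (log2 fold change 0.35, adjusted p = 0.143), with 2604, 2361 and 2786 CPM in control and 3585, 3925 and 2378 CPM in clone libraries and overlap between them, and without replicate 3 it was higher by 0.54 (adjusted p = 0.00513).

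The list of fibroblast and stellate cell markers rose in its sum and not in most of its members. Summed levels were 961 to 1157 CPM in control and 12142 to 13945 CPM in clone libraries, while 7 of 17 genes rose, 5 fell and 5 did not pass. Most of the sum in the clone was *Col1a1* and *Postn*, which are also counted with the interstitial matrix genes. *Pdgfrb*, the receptor of stellate cells and pericytes, rose from 27.7, 39.7 and 20.9 CPM to 592, 566 and 821 CPM, and *Pdgfra*, that of fibroblasts, from 28.9, 26.5 and 15.7 CPM to 94.2, 71.3 and 182 CPM. *Dcn* (decorin), a defining gene of fibroblasts, fell from 60.2, 105 and 58.3 CPM to 2.16, 2.52 and 8.35 CPM, *Eln* (elastin) from 200.3, 91.6 and 62.7 CPM to 0.105, 0.125 and 0.0639 CPM and *Cd34* from 267, 302 and 301 CPM to 0.0898, 0.188 and 0.287 CPM. *Lum* had no count in the control libraries and 11, 11 and 147 counts in the clone, and *Lrat*, the stellate cell enzyme of retinol storage, 1 count over all 6 libraries. *Des* (desmin) did not pass, at 7.58, 5.15 and 4.19 CPM and 12.1, 10.9 and 5.22 CPM, with overlap. Markers of blood cells summed to 10.2 to 24 CPM in control and 17.1 to 18.4 CPM in clone libraries (3 of 10 higher, 5 lower), with *Ptprc* at or under 0.0639 CPM in the clone and *Cd3e* without a count in the 6 libraries. Endothelial markers summed to 81.7 to 130.5 CPM and 20.3 to 31.3 CPM (2 of 9 higher, 5 lower), with *Cdh5* at 0.12, 0 and 0 CPM in the clone. Apart from the genes that are on both lists, the part of these marker levels in the matrix result was not tested.

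Among 12 EMT transcription factors, 7 rose and 3 fell (median log2 fold change 1.16). *Snai1*, a repressor of E-cadherin, stood at 10.2, 27 and 9.13 CPM in control and 37.4, 49.8 and 84.7 CPM in clone libraries (log2 fold change 1.90, adjusted p = 0.00742). The clone lay above the control, with replicate 3 highest. *Zeb1*, another repressor of *Cdh1*, rose from 32.8, 29.9 and 28.6 CPM to 75.9, 71.3 and 85.1 CPM, and *Zeb2* from 22.3, 20.3 and 14.5 CPM to 33.8, 39.6 and 39.4 CPM. *Twist2* rose from 2.91, 4.26 and 2.29 CPM to 23.6, 22.6 and 26.1 CPM, while *Twist1* fell from 3.91, 4.13 and 2.28 CPM to 0.21, 0 and 0 CPM. *Snai2* overlapped between the groups and did not pass (log2 fold change 0.65, adjusted p = 0.152). *Foxc1*, a forkhead factor of mesenchyme, had the largest rise of the list, from 5.87, 4.58 and 5.75 CPM to 66.2, 72.3 and 73.5 CPM.

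Of 33 transcription factors of mesenchymal lineages, 18 rose and 7 fell (median log2 fold change 0.89). *Prrx1*, a homeobox factor of fibroblasts and limb mesenchyme, rose from 49.1, 64.8 and 28.3 CPM to 358, 339 and 404 CPM. *Ebf1*, a factor of adipose and stromal progenitors, went from 4.37, 4.08 and 2.23 CPM to 180.5, 160.3 and 274 CPM. *Osr1*, of intermediate mesoderm, rose from 0.884, 1.16 and 0.24 CPM to 18, 16.7 and 20.1 CPM. *Tcf4*, which is counted with the EMT factors, rose from 32.1, 24.9 and 31.6 CPM to 184, 177 and 322 CPM.

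The contractile genes and targets of serum response factor (SRF) rose in 15 of 24 cases and fell in 1 (median log2 fold change 0.84). *Acta2*, the smooth muscle actin of myofibroblasts, stood at 0.9, 3.06 and 0.19 CPM in control and 61.1, 67.1 and 19.2 CPM in clone libraries (log2 fold change 5.20, adjusted p = 0.000682). Replicate 3 lay more than 2-fold below the other 2 clone libraries and above all controls. *Myl9*, a myosin light chain, had 0.0239, 0.0554 and 0 CPM in control and 29.8, 39 and 17.1 CPM in clone libraries, and *Cnn2* (calponin 2) rose from 81.3, 79.6 and 84.6 CPM to 551, 641 and 447 CPM. These levels of *Acta2* and *Myl9* were far under those of the collagen and osteopontin genes of the same cells.

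Basement membrane genes were split, with 13 of 28 higher and 10 lower. *Lamb3*, the beta chain of laminin 332, fell from 255, 272 and 279 CPM to 0.644, 0.428 and 0.99 CPM. *Lama5*, the alpha 5 laminin chain of epithelial basement membranes, fell from 1199.9, 776 and 1650.0 CPM to 162 and 194 CPM in replicates 1 and 2, while replicate 3 had 764 CPM. With all 3 its log2 fold change was -1.69 (adjusted p = 0.0272) and without replicate 3 -2.76 (adjusted p = 0.000225). It did not pass without any 1 of Vcam1ctrl replicates 1 and 3 and Vcam1KO1 replicates 1 and 2 (adjusted p = 0.0533, 0.0809, 0.0637 and 0.0816). *Itgb4*, the integrin chain of hemidesmosomes that holds laminin 332, fell from 697, 486 and 1128 CPM to 2.41, 1.8 and 3 CPM, and *Itga2*, a collagen receptor chain, from 332, 407 and 378 CPM to 3.97, 2.04 and 10.6 CPM. Of 23 integrin genes 8 rose and 8 fell.

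The immunoglobulin adhesion molecules, the family of VCAM1, fell in 20 of 29 cases and rose in 6 (median log2 fold change -1.83). *Icam1*, a ligand of leukocyte integrins, fell from 65.5, 39.2 and 61.9 CPM to 0.135, 0.25 and 0.575 CPM (log2 fold change -7.46, adjusted p = 1.89e-06), a larger change than that of *Vcam1*. *Bcam*, a laminin receptor, fell from 168, 176 and 255 CPM to 0.629, 0.73 and 0.176 CPM and *Cadm3* from 72.1, 61.2 and 39.5 CPM to 0.0599, 0 and 0 CPM. *Ncam1* did not pass, at 91.5, 75.7 and 86.5 CPM and 102, 109 and 95.1 CPM. *Nfasc* (neurofascin) rose from 0.199, 0.0185 and 0.316 CPM to 20.1, 18.7 and 103 CPM, with replicate 3 furthest up. Cadherins outside the junction list fell in 16 of 27 cases and rose in 7. *Cdh17*, a cadherin of intestine and liver cancers, fell from 544, 536 and 677 CPM to 0.883, 0.762 and 0.287 CPM, *Cdh11*, of mesenchymal cells, from 22.5, 50 and 18.8 CPM to 0.135, 0 and 0.016 CPM, and *Cdh2* (N-cadherin) rose from 61.5, 55.5 and 59.9 CPM to 117, 119.9 and 101 CPM.

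Matrix metalloproteinases and their inhibitors rose in 27 of 49 cases and fell in 12 (median log2 fold change 0.97, or 1.11 with 3 genes at 3 counts or fewer set to that limit). *Mmp2*, the gelatinase of fibroblasts, rose from 107, 56.2 and 63.7 CPM to 890.3, 738 and 1736 CPM. The other gelatinase, *Mmp9*, fell from 584, 398 and 417 CPM to 11.3, 6.3 and 7.42 CPM, and the stromelysin gene *Mmp3* from 216, 194 and 162 CPM to 0.824, 0.386 and 0.192 CPM. *Adam12*, a membrane protease of myofibroblasts, rose from 2.02, 2.58 and 0.847 CPM to 151, 181 and 282 CPM.

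**Figure D2:**
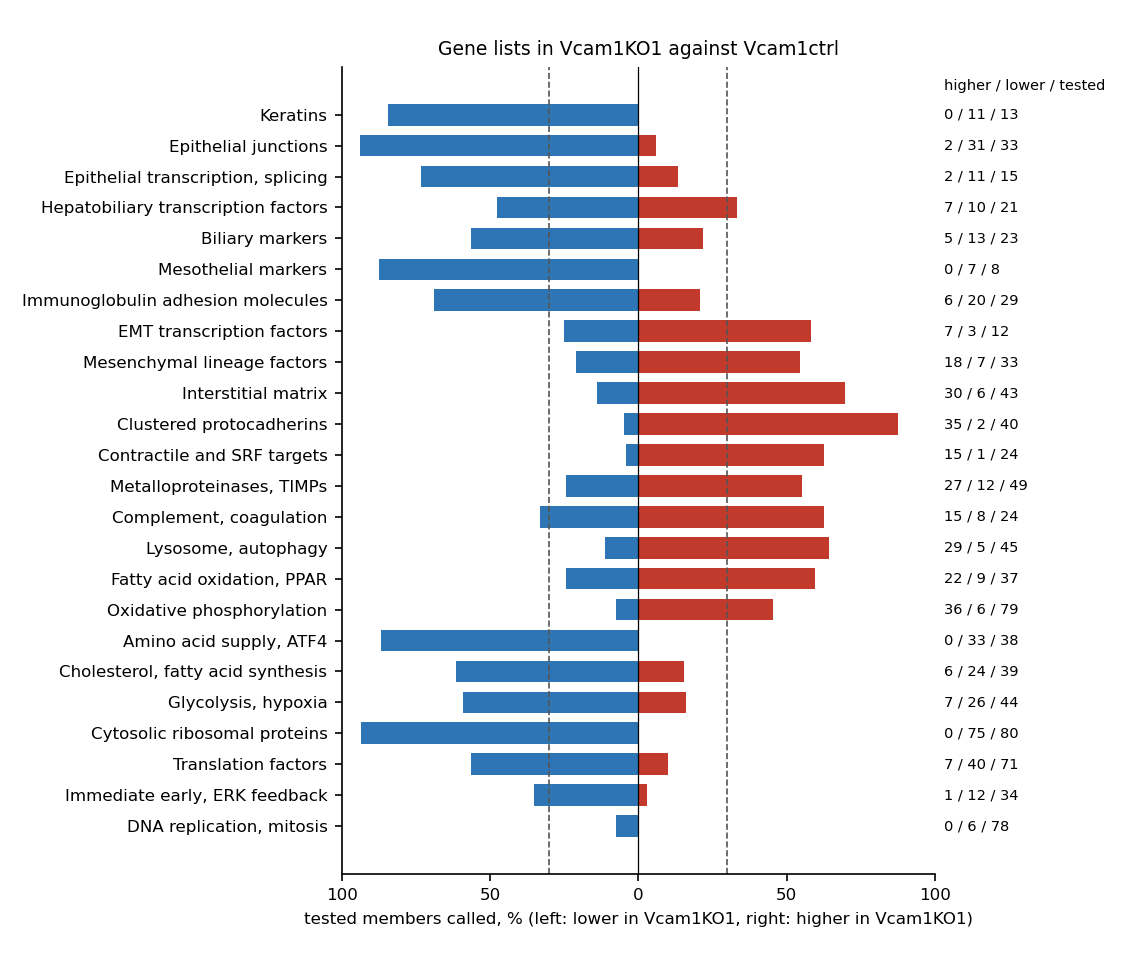
Share of tested members called lower (left, blue) or higher (right, red) in Vcam1KO1 against Vcam1ctrl for 24 gene lists, in percent, with the counts printed at the right and dashed lines at the share of all genes tested called in each direction (30.0% lower, 29.9% higher). Junction, keratin, amino acid supply and ribosomal protein genes reach far past the line on the lower side, and matrix and protocadherin genes past it on the higher side.

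Receptor tyrosine kinases moved both ways, 14 of 40 up and 15 down. *Egfr* fell from 251, 238 and 268 CPM to 48.2, 46.2 and 85.7 CPM, *Erbb3*, its ligand-binding partner, from 20.9, 14.5 and 29.3 CPM to 0.12, 0.0417 and 0.0639 CPM, and *Fgfr4*, the FGF receptor of liver, from 14.7, 27.3 and 18.6 CPM to 0.0749, 0.073 and 0.0319 CPM. *Met*, the receptor of hepatocyte growth factor, fell from 142, 143 and 167 CPM to 37.4, 42.5 and 8.71 CPM, with replicate 3 more than 2-fold below the other 2 libraries. Among 46 growth factor genes 15 rose and 21 fell. The EGFR ligand *Areg* (amphiregulin) fell from 351, 607 and 367 CPM to 0.0749, 0.24 and 0.016 CPM (log2 fold change -11.78, adjusted p = 3.2e-07). *Igf1* and *Igf2*, which signal through the IGF1 receptor, rose from 0.0398, 0.0369 and 0.152 CPM to 49.4, 42.5 and 187 CPM and from 0.223, 0.0554 and 0.101 CPM to 211, 228 and 690.2 CPM. Replicate 3 held the highest level of both.

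Of 34 immediate early and ERK feedback genes, 12 fell and 1 rose with all libraries. The phosphatase gene *Dusp6*, which acts on ERK, stood at 499, 507 and 643 CPM in control and 27.5, 32.2 and 82.1 CPM in clone libraries (log2 fold change -3.54, adjusted p = 6.04e-05), and *Dusp4* at 137, 110.3 and 119 CPM and 4.52, 7.14 and 10.8 CPM. *Etv4*, an ETS factor under ERK control, fell from 95.7, 109 and 100 CPM to 10.9, 14.4 and 4.82 CPM. *Ccnd1* (cyclin D1), listed with cell cycle regulators, fell from 1175, 1184 and 1103 CPM to 66.7, 103 and 66.1 CPM (log2 fold change -3.87, adjusted p = 4.08e-07).

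In the TGF beta and BMP pathway 19 of 48 genes rose and 20 fell. Among ligands, *Tgfb2* rose from 12.7, 10 and 11.5 CPM to 171, 167 and 385 CPM, and *Tgfb1* overlapped and did not pass (log2 fold change -0.18). The receptor gene *Tgfbr1* fell from 72, 72.1 and 87.7 CPM to 24.8, 22.5 and 14.7 CPM. Among secreted inhibitors, *Chrdl1*, a BMP antagonist, rose from 0.446, 0.701 and 0.24 CPM to 176, 177 and 175 CPM, *Fstl1* from 22, 24.3 and 13.6 CPM to 922, 926 and 954 CPM, and *Grem1*, another BMP antagonist, fell from 47.4, 112 and 46.1 CPM to 0.0599, 0.0209 and 0.144 CPM.

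Of 45 genes of the Wnt pathway 20 rose and 14 fell. The ligand *Wnt7b* stood at 181, 227 and 199.5 CPM in control and 0.434, 0.511 and 0.112 CPM in clone libraries. *Wnt10a*, a further ligand, had 59.2, 58.1 and 75.9 CPM in control cells and no count in the clone, at least 1557-fold lower. *Lgr5*, the R-spondin receptor of epithelial stem cells and a Wnt target, rose from 0.00797, 0.0738 and 0.0126 CPM to 3.67, 3.79 and 25.4 CPM, with replicate 3 above the other 2. *Axin2*, the Wnt feedback gene, did not pass (log2 fold change -0.56). In the Notch pathway 13 of 23 genes rose and 7 fell, and 9 and 7 without replicate 3. The receptor *Notch1* rose from 95.2, 61.8 and 94.9 CPM to 188, 180.3 and 314 CPM, the ligand *Jag1* fell from 387, 397 and 465 CPM to 77.8, 95.3 and 80.6 CPM, and the target *Nrarp* fell from 25.1, 32.5 and 24.1 CPM to 0.165, 0 and 0.0319 CPM. Targets of YAP and TEAD rose in 14 of 28 cases and fell in 8. Their usual readout *Ccn2* rose by 0.79 on the log2 scale (adjusted p = 0.0391), and without any 1 of Vcam1ctrl replicates 1 and 2 and Vcam1KO1 replicates 1 and 2 it did not pass (adjusted p = 0.122, 0.15, 0.127 and 0.0827). *Nt5e*, an ectonucleotidase, fell from 151, 183 and 179 CPM to 5.11, 5.2 and 2.89 CPM.

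The chemokine *Cxcl12*, a stromal ligand of CXCR4, stood at 0.295, 0.185 and 0.0759 CPM in control and 1288, 1307 and 1580.5 CPM in clone libraries (log2 fold change 12.79, SE 0.44, adjusted p = 6.77e-08). Of 30 chemokine and receptor genes 7 rose and 11 fell. The monocyte chemokine *Ccl2* overlapped and did not pass, at 429.6, 83.9 and 357 CPM and 89.2, 197 and 126 CPM, and *Cxcl2*, a neutrophil chemokine, fell from 65.8, 1.38 and 54.9 CPM to 0.0449, 0.0835 and 0.718 CPM, with an adjusted p of 0.0669 by limma-voom. Of 33 genes of NF-kB signalling and inflammation 15 fell and 8 rose, with *Lcn2* (lipocalin 2) falling from 111, 42.8 and 48.5 CPM to 0.135, 0.0313 and 0.16 CPM. Of 53 interferon-stimulated genes 20 rose and 12 fell. Their summed levels were 779 to 927 CPM in control and 1181 to 1754 CPM in clone libraries. *Oas1a* and *Oasl1*, of the oligoadenylate synthetase family, fell from 16.7, 19.7 and 19.9 CPM to 0.24, 0.125 and 0.192 CPM and from 29.5, 38.2 and 37.2 CPM to 0.015, 0.0522 and 0.016 CPM. Antigen presentation genes were split, 7 of 23 up and 8 down. *B2m*, the light chain of MHC class I, did not pass (log2 fold change 0.18), while the class I gene *H2-Q4* fell from 39.1, 20.7 and 23.6 CPM to 1.59, 2.02 and 1.44 CPM, a member of a family with near-identical copies among which read assignment is uncertain.

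Genes of amino acid supply and the ATF4 response were lower as a group. Of 38 tested, 33 fell and the other 5 did not pass, with a median log2 fold change of -2.09, and 33 were lower without replicate 3. ATF4 is the transcription factor that raises amino acid transporters and synthetases when amino acids are short or the endoplasmic reticulum is stressed. *Atf4* itself stood at 868, 1349.9 and 901 CPM in control and 244, 298 and 385 CPM in clone libraries (log2 fold change -1.75, adjusted p = 0.000362). *Asns*, asparagine synthetase, fell from 355, 538 and 316 CPM to 46.7, 59.4 and 28.1 CPM. *Trib3*, a feedback inhibitor of ATF4, fell from 318, 591 and 334 CPM to 4.84, 6.27 and 4.01 CPM, and *Chac1*, which degrades glutathione, from 84.7, 167 and 103 CPM to 4.99, 7.74 and 4.45 CPM. *Slc7a11*, the cystine transporter, had 106, 117 and 128 CPM in control and 1.36, 1.68 and 0.511 CPM in clone libraries (log2 fold change -6.60, adjusted p = 3.19e-05).

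The promoters of this list were read for TGATGNAA, where N is any base, the first part of the composite element that ATF4 binds with C/EBP partners, on both strands. Counted by gene as before, these letters stood in a promoter of 1219 of 27025 genes (4.51%). The share was 3.05% of genes tested with a promoter entry, 2.62% of those called higher and 3.76% of those called lower. These letters stood in a promoter of 11 of 30 genes of the list with an entry (36.7%), from 38 genes on it. The list was written as genes of the ATF4 response and amino acid supply, so this share describes the list and not the clone. A match is again letters and not a bound site. Windows of 60 bases from 5 of these genes are shown with the match in capitals, since the element is the usual mark of this program.
Slc7a11 (chr3:50443646-50443705, minus strand): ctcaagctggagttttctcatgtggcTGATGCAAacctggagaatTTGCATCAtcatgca
Fgf21 (chr7:45615596-45615655, minus strand): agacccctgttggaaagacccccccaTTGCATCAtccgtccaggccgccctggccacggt
Chac1 (chr2:119351023-119351082, plus strand): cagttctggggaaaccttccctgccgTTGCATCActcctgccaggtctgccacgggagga
Vldlr (chr19:27216794-27216853, plus strand): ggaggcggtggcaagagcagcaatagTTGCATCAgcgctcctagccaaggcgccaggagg
Asns (chr6:7693210-7693269, minus strand): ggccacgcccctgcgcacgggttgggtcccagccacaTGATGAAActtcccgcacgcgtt
The window of *Slc7a11* holds 2 matches, 1 on each strand, and that of *Asns* spans the GENCODE start of the gene. *Vldlr*, a lipoprotein receptor, fell from 371, 331 and 413 CPM to 24.5, 23 and 23.7 CPM, and *Fgf21*, a secreted metabolic hormone, was at the limit of detection in the clone, with 93, 63 and 106 counts in control and 2, 2 and 2 counts in clone libraries.

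Sugar use and lipid synthesis were lower in most genes listed. Of 44 genes of glycolysis and the hypoxia response 26 fell and 7 rose (median log2 fold change -0.59). The glucose transporter *Slc2a1* fell from 697, 784 and 791 CPM to 63, 71.1 and 54.1 CPM (log2 fold change -3.59, adjusted p = 1.52e-07), lactate dehydrogenase *Ldha* from 1578, 1808 and 1969 CPM to 718, 689.6 and 509 CPM, and the lactate exporter *Slc16a3* from 231, 208 and 304 CPM to 0.404, 0.0209 and 0 CPM. Of 39 genes of cholesterol and fatty acid synthesis 24 fell and 6 rose (median log2 fold change -0.89).

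Of 37 genes of fatty acid oxidation and PPAR targets 22 rose and 9 fell (median log2 fold change 0.55). *Plin4*, a lipid droplet coat protein of adipocytes, went from 0.0319, 0.0554 and 0.164 CPM to 397, 410.2 and 501 CPM (log2 fold change 12.39, adjusted p = 9.3e-08). *Pparg*, the nuclear receptor of adipocyte differentiation, rose from 7.57, 7.09 and 9.54 CPM to 80.1, 92.6 and 69.9 CPM, and *Fabp4*, a fatty acid binding protein it controls, from 0.327, 0.277 and 0.354 CPM to 5.75, 8.57 and 13.9 CPM. The fatty acid transporter *Cd36* rose from 0.104, 0.0185 and 0.101 CPM to 13.3, 16.6 and 23 CPM. *Adipoq*, the hormone adiponectin, had 3 counts in 1 control library and none in the others, and 3.97, 3.8 and 27.8 CPM in the clone, with replicate 3 the highest. *Car3*, a carbonic anhydrase abundant in adipocytes and muscle, had 1 count over the 3 control libraries and 293, 372 and 1150.3 CPM in the clone, where replicate 3 lay more than 2-fold above the others.

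Lysosome and autophagy genes rose in 29 of 45 cases and fell in 5 (median log2 fold change 0.81). *Lamp1*, a lysosomal membrane protein, rose from 452, 414 and 458 CPM to 879, 869.5 and 1105 CPM and *Psap*, the saposin precursor, from 614, 546 and 669 CPM to 2305, 2211 and 3566 CPM. The autophagy receptor *Sqstm1* fell from 1738, 1536 and 1487 CPM to 800.4, 877 and 1023 CPM and the protease *Ctsh* from 108, 88.2 and 165 CPM to 3.67, 3.67 and 17.1 CPM. Genes of NRF2 and glutathione fell in 21 of 48 cases and rose in 14. *Abcc2*, the bile canalicular export pump, fell from 53.4, 54.1 and 71.9 CPM to 0.0449, 0.104 and 0.0319 CPM and *Gsta3* from 74.8, 47.6 and 118 CPM to 1.65, 1.68 and 1.55 CPM. Genes of protein folding in the endoplasmic reticulum were split, with 11 of 35 in each direction. *Xbp1*, a factor of the unfolded protein response, fell, with a log2 fold change of -1.49, and *Creb3l1*, a factor of collagen secretion, rose by 2.55.

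Of 80 cytosolic ribosomal protein genes tested, 75 were lower in Vcam1KO1 and the other 5 did not pass, with a median log2 fold change of -1.20. Summed over the list they amounted to 67464, 63110.3 and 62319 CPM in control and to 31498, 29502 and 22084 CPM in clone libraries, lowest in replicate 3. *Rps6*, a phosphorylation target of S6 kinase, fell from 1236, 1119.6 and 1105 CPM to 313, 312 and 243 CPM. These genes have many processed pseudogenes, so assignment of their reads is less certain than for other genes. Translation factors fell in 40 of 71 cases and rose in 7. *Eef1a1*, the elongation factor that was among the most abundant genes of control cells, fell from 11249, 12062 and 12543 CPM to 6614, 6001 and 4394 CPM, and *Eif4ebp1*, an inhibitor of cap-dependent translation, from 214, 242 and 198 CPM to 28.5, 35.2 and 14.2 CPM. *Eif2ak4*, the kinase that senses amino acid shortage upstream of ATF4, rose from 19.9, 18.7 and 20.5 CPM to 98, 111 and 114 CPM.

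Of 79 nuclear genes of oxidative phosphorylation 36 rose and 6 fell (median log2 fold change 0.25). Among those that passed without overlap and with a mean of at least 5 CPM, *Ndufa4*, a cytochrome oxidase component, changed the most. It rose from 118, 138 and 97.1 CPM to 262, 262 and 279.5 CPM. Of 13 mitochondrially encoded genes 9 rose and 4 did not pass. *mt-Nd2*, a subunit of complex I, stood at 207, 104 and 208 CPM in control and 534, 704 and 1052 CPM in clone libraries (log2 fold change 2.14, adjusted p = 0.00153), highest in replicate 3. Mitochondrial ribosomal proteins rose in 11 of 78 cases and fell in 25.

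Proliferation genes were low in replicate 3. Of 78 genes of DNA replication and mitosis 6 fell with all libraries and the other 72 did not pass. In replicate 3, 69 of 76 with a mean of at least 5 CPM lay 2-fold or more below replicates 1 and 2. Summed over the list, levels were 4607, 5545 and 1036 CPM in the clone and 4309, 5772 and 3241 CPM in the control. *Mki67*, the Ki-67 antigen of cycling cells, stood at 216, 238 and 27.7 CPM against 155, 179 and 114 CPM in control libraries, so that replicates 1 and 2 lay above the control and replicate 3 below it. *Top2a*, which untangles chromosomes, had 246, 299.9 and 32.7 CPM in the clone and 286, 360.2 and 189 CPM in the control, with overlap. The genes furthest below in replicate 3 were headed by *Nuf2*, of the kinetochore, at 55.3, 57.9 and 5.73 CPM, and also held *Ccna2* (cyclin A2) at 68.6, 75.2 and 7.61 CPM and *Cep55*, of abscission, at 23, 22.9 and 2.59 CPM. Without replicate 3, 11 proliferation genes were higher and 6 lower in the clone, with a median log2 fold change of 0.17 in place of -0.25. *Cdt1*, which licenses replication origins, fell with all libraries from 77.9, 72.9 and 55.1 CPM to 19.3, 33.3 and 9.91 CPM, and *E2f2* from 9.88, 15.7 and 8.16 CPM to 3.06, 2.94 and 0.702 CPM.

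Immediate early genes stood above replicates 1 and 2 in replicate 3 at 15 of 33 genes, with summed levels of 2202, 4022 and 10882 CPM in the clone. *Fos*, a subunit of AP-1, had 91.2, 213 and 759 CPM in the clone and 874, 338 and 1349 CPM in the control, and *Egr1* 231, 391 and 1760.3 CPM and 656, 451 and 1126 CPM. The groups overlapped at both genes and neither passed. *Nr4a1*, an orphan nuclear receptor of the same kind, reached 1052 CPM in replicate 3 against 63.9 and 131 CPM in replicates 1 and 2. Among the other genes furthest above in replicate 3 were several of secreted or surface proteins. *Mmp13*, a collagenase, had 0.509, 0.814 and 21.4 CPM in the clone against 152, 125 and 163 CPM in the control, so that its log2 fold change was -4.28 with and -7.76 without replicate 3. *Adamts8* had 1.32, 1.08 and 19.8 CPM, *Ptgds*, prostaglandin D synthase, 2.07, 3.83 and 43.6 CPM, *Col9a1*, a collagen of cartilage, 1.36, 1.04 and 14.7 CPM, *S100b* 1.54, 0.918 and 12.7 CPM and *Rnase1* 2.73, 2.02 and 20.9 CPM. The part of the low proliferation genes and high immediate early genes of replicate 3 in its other values was not tested.

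**Figure D3:**
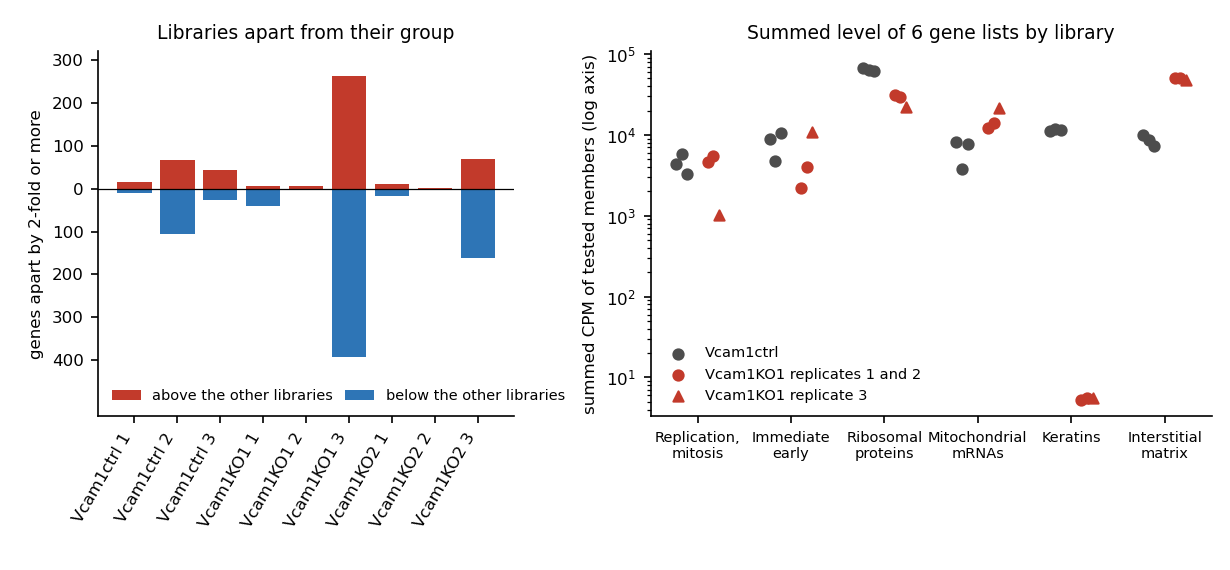
Left, for each of the 9 libraries, the number of genes at which its log2 CPM lies 2-fold or more above (red) or below (blue) both other libraries of its group; replicate 3 of Vcam1KO1 has 262 and 393, more than any other of the 9. Right, summed CPM on a log axis of 6 gene lists in each Vcam1ctrl and Vcam1KO1 library: replicate 3 (triangle) is low for replication and mitosis and high for immediate early and mitochondrial transcripts, and stands with the other clone libraries for keratins and interstitial matrix.

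Of 37 cell cycle inhibitors and quiescence genes 15 rose and 11 fell. *Cdkn1a*, the inhibitor p21 of cyclin-dependent kinases, fell from 373, 392 and 361 CPM to 117, 122 and 80 CPM, *Gas1*, a growth arrest gene, rose from 27.9, 27.2 and 19.1 CPM to 302, 278 and 352 CPM, and *Pik3ip1*, an inhibitor of PI3K, from 2.51, 2.01 and 3.26 CPM to 43.5, 31.6 and 42.9 CPM. *Perp*, a membrane protein of desmosomes, fell from 278, 229 and 291 CPM to 6.09, 7.97 and 3.22 CPM. Among 36 genes of DNA methylation and Polycomb 12 fell and 9 rose. The chromatin protein genes *Hmga1* and *Hmga2* fell from 1055, 972 and 940.4 CPM to 50.2, 59.4 and 70.1 CPM and from 177, 249 and 152 CPM to 5.2, 5.67 and 2.15 CPM. Of 23 S100 and annexin genes 14 fell and 2 rose. *S100a4*, a gene of motile mesenchymal cells, rose from 68.1, 116 and 39.7 CPM to 1046, 1128 and 422 CPM and *Anxa13*, an annexin of epithelial surfaces, fell from 985, 956 and 1200.3 CPM to 0.015, 0.0417 and 0.0479 CPM. Ion transport genes fell in 19 of 31 cases and rose in 8, with *Aqp1*, the water channel of bile ducts, falling from 239, 184 and 374 CPM to 1.77, 1.45 and 3.97 CPM.

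To see where Vcam1KO1 differed from the second clone, its 3 libraries were tested against the 3 of Vcam1KO2 in the same fit. The clones differed at 6833 of 17672 genes (38.7%), and 5040 of the 10584 genes called in Vcam1KO1 against control were among them. *Vcam1* itself did not differ (log2 difference 0.09, adjusted p = 0.755), with 119, 99.4 and 83 CPM in Vcam1KO2. Several genes known from adipocytes were higher in Vcam1KO1: *Car3* by 9.99 on the log2 scale (adjusted p = 9.11e-06), *Plin4* by 5.25 (adjusted p = 7.02e-06) and *Pparg* by 2.41 (adjusted p = 2.18e-05). Their levels in Vcam1KO2 were 0.548, 0.58 and 0.651 CPM, 12.8, 13.1 and 8.51 CPM and 16.2, 17.3 and 12.1 CPM. *Cd36* differed too, with 1 count over the 3 Vcam1KO2 libraries (adjusted p = 4.93e-06). *Cxcl12* and *Ebf1* were also higher in Vcam1KO1, by 3.74 and 2.11 (adjusted p = 2.58e-05 and 0.000654). *Cnmd*, a cartilage glycoprotein, had no count in the control, 0.0343, 0.0283 and 0.0148 CPM in Vcam1KO2 and 8.49, 7.24 and 46.8 CPM in Vcam1KO1, with replicate 3 the highest, and was at least 534-fold higher than in the control. *Grb10*, an imprinted adaptor of growth factor receptors, fell from 167, 248 and 169.8 CPM to 10.8, 10.3 and 5.6 CPM in Vcam1KO1 and stood at 0, 0.0141 and 0.0296 CPM in Vcam1KO2 (adjusted p of the difference 4.87e-06).

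Other genes were lost in Vcam1KO1 and present in Vcam1KO2. *Wnt10a*, without a count in Vcam1KO1, stood at 79, 88.9 and 100.3 CPM in Vcam1KO2, and *Wnt7b* at 242, 272 and 306 CPM, both above every control library. *Grem1* had 129.5, 125 and 77.7 CPM in Vcam1KO2 against 0.0599, 0.0209 and 0.144 CPM in Vcam1KO1. The organic anion transporter *Slco4a1* had 36.7, 44 and 55.4 CPM in the control, 11.2, 10.9 and 24.1 CPM in Vcam1KO2 and no count in Vcam1KO1, and *Adm2*, a peptide hormone, 60.5, 99.6 and 72.2 CPM, 4.87, 5.78 and 0.592 CPM and no count. *Mmp9* differed by -5.50 (adjusted p = 2.42e-06), *Hmga2* by -4.88 (adjusted p = 1.83e-05), *Etv4* by -3.75 (adjusted p = 5.77e-05) and *Trib3* by -4.73 (adjusted p = 0.000422), all lower in Vcam1KO1. Of the 38 amino acid and ATF4 genes 28 differed between the clones, of the 80 ribosomal protein genes 59, of the 33 junction genes 17 and of the 43 interstitial matrix genes 23, beside 38.7% of all genes. At *Postn* and *Spp1* no difference between the clones passed (log2 differences 0.96 and 0.13, adjusted p = 0.179 and 0.64).

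**Figure D4:**
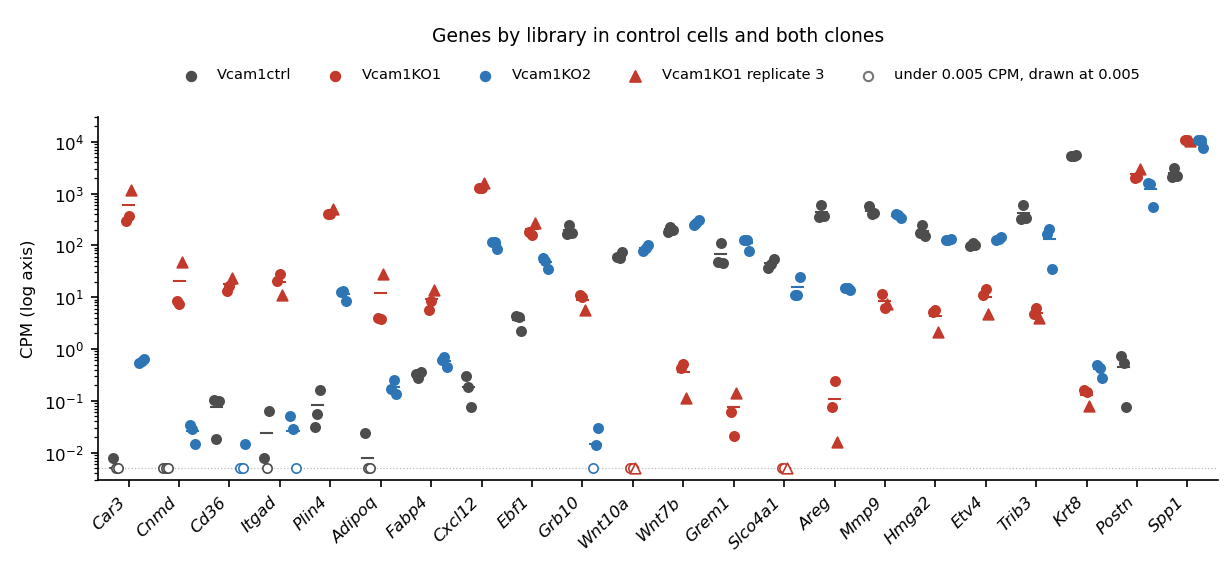
CPM on a log axis of 22 genes in Vcam1ctrl (grey), Vcam1KO1 (red, replicate 3 as a triangle) and Vcam1KO2 (blue), 3 libraries each, with a line at each mean and open symbols for levels under 0.005 CPM. *Car3*, *Cd36* and *Plin4* are far higher in Vcam1KO1 than in Vcam1KO2, *Wnt10a*, *Wnt7b* and *Grem1* are near 0 in Vcam1KO1 alone, and *Krt8*, *Postn* and *Spp1* stand on the same side of the control in both clones.

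Genes were also laid out by chromosome, a view chosen after the data were seen. Over 10784 genes with a mean of at least 5 CPM, 30.5% rose and 31.1% fell, with a median log2 fold change of -0.02. On chromosome 4, 355 of 646 genes fell (55.0%) and 85 rose (13.2%), with a median of -0.56, and -0.53 without replicate 3. The median in Vcam1KO2 was -0.65. The median deviation from the control mean was -0.54, -0.52 and -0.55 in the 3 Vcam1KO1 libraries and lay between -0.01 and 0.02 in the control libraries. In 13 consecutive stretches of 46 to 50 genes along the chromosome the median was below 0 in each, from -0.80 to -0.20. On chromosome 5, 336 of 701 genes rose (47.9%) and 116 fell (16.5%), with a median of 0.35, against 0.41 in Vcam1KO2. The shifts of these 2 chromosomes were therefore not particular to Vcam1KO1. The medians of the clones lay furthest apart on chromosomes 6, 13, 16 and X. Chromosome 6 had medians of 0.27 in Vcam1KO1 and -0.07 in Vcam1KO2, chromosome 13 of -0.11 and 0.21, chromosome 16 of 0.13 and -0.22, and chromosome X of 0.10 and 0.66, each clone against the same 3 control libraries. Smaller medians of opposite sign were seen on chromosome 2 (-0.11 and 0.13) and chromosome 15 (-0.12 and 0.12), among others. The ribosomal protein gene *Rps6* lies on chromosome 4. DNA copy number was not measured here, and its part in these medians was not tested.

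**Figure D5:**
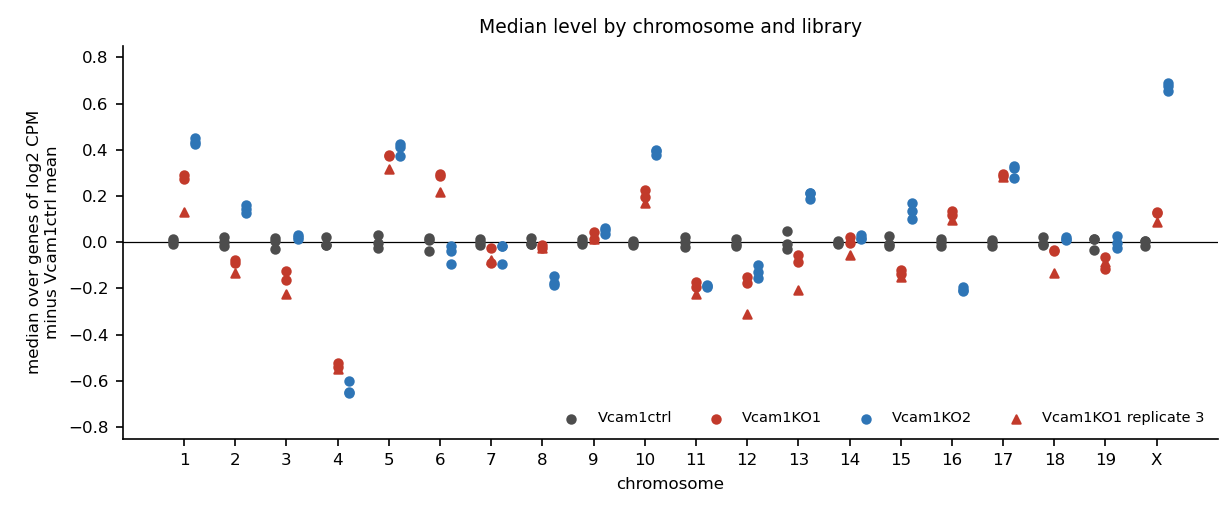
Median over genes of the log2 CPM minus the Vcam1ctrl mean, for each chromosome and library (grey Vcam1ctrl, red Vcam1KO1 with replicate 3 as a triangle, blue Vcam1KO2). The Vcam1KO1 libraries lie together at -0.55 to -0.52 on chromosome 4 and at 0.32 to 0.38 on chromosome 5, and the clones lie furthest apart on chromosomes 6, 13, 16 and X.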

How the data were processed

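RNA-seq libraries of poly(A) RNA (Illumina TruSeq stranded, paired-end) were quantified by the authors with kallisto 0.46.1 against a mouse annotation of mm10, strand-specifically and with bias correction, and deposited as 1 table of estimated counts per gene for 9 libraries, all of which were already whole numbers. Library sizes were scaled with TMM, and genes were filtered with filterByExpr (17672 of 55276 kept). The 3 groups were fitted together with edgeR 4.0.16 in R 4.3.3, and Vcam1KO1 was tested against Vcam1ctrl and against Vcam1KO2 with the quasi-likelihood F-test at a Benjamini-Hochberg adjusted p of 0.05 over all genes tested. The log2 CPM used to find libraries apart had a prior count of 2. Members and gene lists were chosen with earlier results of these data known. Named were preset genes, the first 2 members and up to 3 members of each list with the largest change, the 10 largest rises and falls, the 8 genes furthest above and below in replicate 3, the 5 most abundant and the 5 largest differences between clones in each direction. *Dsp*, *Jup*, *Lsr*, *Foxa1*, *Pparg*, *Fabp4*, *Twist1*, *Twist2*, *Zeb1*, *Zeb2*, *Vldlr*, *Fgf21* and *Hp* lie outside this rule and were chosen after their values were seen, as were the motifs. Genes are located in GENCODE vM21, and not every gene had a promoter entry. Of 25174 promoters with a transcript of the same symbol, 78.8% had their last bases found in such a transcript. The fit was tested on simulated data for Vcam1KO1 against Vcam1ctrl, with a true 2-fold change in 200 of 17168 genes. It called 82 of these 200 (41%) and 6 unchanged genes. A far larger share of genes passed in the data, and the adjusted p depends on that share, so the 41% does not carry over. A gene that did not pass may still have changed by 2-fold. Alternatives were limma-voom (limma 3.58.1), DESeq2 1.42.0, upper-quartile scaling, other filters, a fit of 6 libraries and leaving out each library. Some genes covered by the rule are not reported here.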

Additional observations from a re-analysis of the deposited data

Results flagged for a closer look

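At 341 genes Vcam1KO1 and Vcam1KO2 were called in opposite directions against the same 3 control libraries and also differed from each other by edgeR's quasi-likelihood test, 145 of them higher and 196 lower in Vcam1KO1. Among the genes named above, 4 did so, and the difference between the clones was tested for each. *Ccn2*, the YAP target, was higher in Vcam1KO1 by 1.57 on the log2 scale (adjusted p = 0.00301), at 639, 594 and 484 CPM against 242, 229 and 109 CPM, with 291, 281 and 422 CPM in control libraries. *Hoxa10* was higher by 2.31 (adjusted p = 2.94e-05), at 12.7, 10.9 and 11.4 CPM against 2.02, 2.4 and 2.62 CPM. *Cd36* had a fitted difference of 11.35 (adjusted p = 4.93e-06), which is no bound because Vcam1KO2 held 1 count in all. *Wnt10a* had a fitted difference of -15.72 (adjusted p = 8.3e-07), again no bound, since Vcam1KO1 held no count. Libraries that stood apart were counted in these groups of 3 by description only, as given above, and no test for an outlying library was run.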

How the results depend on the processing

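The number of genes changed lay between 8194 (filter at a mean of 1 CPM) and 11033 (no filter), with 10703 by limma-voom and 10932 by DESeq2, and between 9518 and 10423 with 1 library left out. *Vcam1* stayed lower and past the threshold in all 12 alternatives, from -1.51 to -1.15 with 1 library left out. Genes that differed between the clones numbered 6484 to 7615 under other tools and filters and 5864 to 6045 without 1 library of Vcam1KO1. Replicate 3 stood apart at 665 genes with upper-quartile scaling, at 995 of 12483 when genes from a mean of 1 CPM were counted, and at 202 with a gap of 4-fold. Of the 57 list counts of 10 or more, 8 moved by over 1.5 times: with the 1 CPM filter, which tests fewer genes, lower keratins went from 11 to 7, hepatobiliary factors from 10 to 5, other cadherins from 16 to 10 and chemokines from 11 to 6, while higher imprinted genes went from 10 to 6 and protocadherins from 35 to 22. Higher mitochondrial ribosomal proteins went from 11 to 7 without Vcam1ctrl replicate 1 or Vcam1KO1 replicate 1, and higher oxidative phosphorylation genes from 36 to 23 with no filter. The cause was not tested. The larger direction turned for hepatobiliary factors with the 1 CPM filter (6 higher, 5 lower), for proliferation and antigen presentation genes without Vcam1KO1 replicate 3 (11 and 6, 9 and 8), for blood cell markers with the 1 CPM filter (2 and 1), and in near-even lists of TGF beta and receptor tyrosine kinase genes. Of 169 named genes that passed, 4 lost their call in some alternative (*Alb*, *Ccn2*, *Cxcl2* and *Lama5*) and none turned.

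Genes that did not pass were less settled. *Ccl2* passed without Vcam1ctrl replicate 2 (adjusted p = 0.00644), *Cd24a* without Vcam1ctrl replicate 3 (0.00651), *Snai2* and *Tgfb1* without Vcam1ctrl replicate 2 (0.012 and 0.0383), *Sox9* and *S100b* without Vcam1KO1 replicate 2 (0.0219 and 0.0275), and *S100b* also without Vcam1ctrl replicate 3 (0.0451). *Sox9* and *S100b* passed by DESeq2 as well (0.0486 and 0.0262), *Ccl2*, *Nuf2*, *S100b* and *Sox9* with no filter (0.0437, 0.0219, 0.0399 and 0.0408), and *Ncam1* with upper-quartile scaling (0.0479). *Col1a2* and *Des* passed without Vcam1ctrl replicate 1 (0.0226 and 0.0446) and, as *Vim*, *Ncam1* and *Nuf2* did, without Vcam1KO1 replicate 3 (0.0209, 0.0079, 0.00513, 0.039 and 0.00136). Some values near 0 changed sign. By limma-voom *Ccna2* was at -0.13, *Egr1* at -0.34, *Mki67* at -0.38 and *Ptgds* at -0.16, and with no filter *Egr1* was at -0.013. With 1 library left out *Ccna2* ranged from -0.23 to 0.71, *Egr1* from -1.25 to 0.51, *Mki67* from -0.29 to 0.61, *Nr4a1* from -0.18 to 2.35 and *Ptgds* from -1.35 to 1.60. No paired analysis was possible because the labels give the groups no shared replicate numbers. With 3 libraries a group and 1 clone, a change of the clone cannot be told apart from an effect of the edit. Libraries held 53415907 to 125223073 counts, and 3 counts or fewer per library were taken as the limit of detection, which is a chosen setting.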

Other observations

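Clustered protocadherins, neural adhesion molecules transcribed from neighbouring gene clusters, rose in 35 of 40 cases and fell in 2 (median log2 fold change 2.83). *Pcdhb16* went from 1, 0.535 and 0.645 CPM to 22.5, 21.9 and 29 CPM and *Pcdhb17* from 1.88, 1.29 and 1.96 CPM to 28.6, 27 and 28.4 CPM. Their sequences are alike, so the split of reads among members is uncertain. Of 18 genes of the Hox clusters, which set position along the body, 8 rose and 9 fell. *Hoxb13*, a posterior member, was at least 804-fold lower, from 30.8, 29 and 39.9 CPM to no count, and *Hoxa10* stood at 3.33, 4.19 and 4.24 CPM in control and 12.7, 10.9 and 11.4 CPM in clone libraries. Imprinted genes were even, 10 of 27 in each direction, and beside *Igf2* and *Grb10* the placental growth gene *Phlda2* fell from 21.8, 23.2 and 22.6 CPM to 0.03, 0.0104 and 0.0958 CPM.

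Complement and coagulation genes rose in 15 of 24 cases and fell in 8 (median log2 fold change 1.44). *C3*, the central complement protein, rose from 365, 195 and 279 CPM to 1058, 743 and 2230.5 CPM, with replicate 3 more than 2-fold above the other libraries of the clone, and *C1s1*, a protease of the classical pathway, from 48.2, 27.8 and 40 CPM to 133, 121 and 180.0 CPM. *Cfb*, of the alternative pathway, fell from 102, 113 and 153 CPM to 0.734, 0.355 and 2.17 CPM, and *F2rl1*, the protease receptor PAR2 of epithelium, from 366, 391 and 412 CPM to 0.0449, 0.0417 and 0.0319 CPM. Axon guidance genes moved both ways, 18 of 53 up and 21 down. *Ntn1* (netrin 1) rose from 8.88, 5.37 and 10.7 CPM to 199, 246 and 269 CPM and *Sema3e*, a repulsive ligand, fell from 201, 191 and 177 CPM to 6.56, 9.73 and 3.19 CPM. Of 7 syndecan and glypican genes 3 rose and 4 did not pass, with *Gpc6* at 18.8, 16 and 19.1 CPM in control and 44.2, 45.6 and 65.2 CPM in clone libraries.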
